A study of Sus scrofa with 11 samples.

Results

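The genes described here encode subunits of the oxidative phosphorylation complexes in the skeletal muscle of pigs fed a low protein (LP) or a high protein (HP) diet. Members were the probe sets with a single platform gene symbol of the form NDUFA, NDUFB, NDUFC, NDUFS or NDUFV with a number, SDHA to SDHD, UQCR, CYC1, CYCS, COX4 to COX8 or ATP5, and a gene with several of them was represented by the brightest, judged by its mean over the arrays. This gave 60 of 6765 genes, or 75 of 23999 probe sets, of which 32 genes belonged to complex I, 4 to complex II, 2 to complex III, 7 to complex IV and 14 to complex V, while CYCS encodes the carrier cytochrome c. The levels are log2 expression values per probe set from Affymetrix Porcine Genome arrays, hybridised with amplified RNA of the *M. semimembranosus* of purebred Duroc gilts, with 1 array per pig. The 6 HP pigs received 217 g/kg crude protein and 13.0 g/kg lysine and the 5 LP pigs 128 g/kg crude protein and 7 g/kg lysine, at the same 14 MJ/kg of digestible energy, for 63 days from about 10 weeks of age. The gilts had been blocked on initial weight before they were assigned to the diets. No source used here gives the block, pen or slaughter date of a single pig, so none of these entered the fit and their part in the differences was not tested. In a whole piece of muscle, fewer fibres and less RNA per fibre cannot be told apart either.

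Oxidative phosphorylation takes place in the inner mitochondrial membrane. Complex I oxidises NADH and complex II oxidises succinate, both pass electrons through coenzyme Q to complex III, cytochrome c carries them on to complex IV, which reduces oxygen, and the proton gradient built up on the way drives ATP synthesis by complex V. Muscle is rich in these transcripts, more so in slow oxidative than in fast glycolytic fibres, and all the subunits described here are encoded in the nucleus and imported.

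None of the 60 genes was called higher or lower in LP muscle. The study set its cut-off of 0.05 on P-like values from puma, and here the same cut-off was set on unadjusted limma p-values, which are another measure. The number of members at a limma p of 0.05 or less was 0 of 60. Of all 23999 probe sets 5.11% passed it (2.97% lower and 2.15% higher in LP), as did 4.73% of the 6765 genes read by their brightest probe set. The exact permutation test also called 0 of the 60, with a smallest p of 0.11, against 5.4% of all probe sets. The smallest Benjamini-Hochberg adjusted p of a member was 0.968 in limma, and 0.0% of all probe sets passed an adjusted p of 0.05. The largest difference in either direction was 0.28 on the log2 scale. The 95% intervals of 45 of the 60 members lay within 1.5-fold of no change in both directions and those of the other 15 reached past it, with outer bounds of -0.68 and 0.52. None of the 60 intervals lay within 1.2-fold on this scale.

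Most members lay slightly below 0 on the scale of the deposited levels. Fewer did, and by less, once the arrays were given the same distribution of values. The LP minus HP difference was below 0 for 55 of 60 members, with a median of -0.15. Over all probe sets the median was -0.02 with 52.6% below 0, and over the brightest 10% of probe sets, to which 54 of the 60 members belonged, it was -0.09 with 75.2% below 0. After quantile normalization, which sets every array to the same distribution, 37 of the 60 differences were below 0, with a median of -0.03. The median was 0.00 over all probe sets, with 49.6% below 0, and 0.00 over the brightest 10%, with 48.25% below 0. All 37 members had been below 0 before, and 18 others moved from below 0 to above it. ATP5S, COX6A1, NDUFA5, NDUFS6 and SDHC were above 0 on both scales. Quantile normalization called 0 of 60 in limma, with a smallest adjusted p of 0.878, where 6.09% of all probe sets passed. The median standard error was then 0.09 in place of 0.17. The intervals of 59 of the 60 members lay within 1.5-fold and those of 36 within 1.2-fold. Because the step gives equal ranks the same level on every array, it narrows the spread of bright probe sets by itself. These intervals are thus no measure of better precision. The exception at 1.5-fold was ATP5I, the e subunit of complex V, with a lower bound of -0.59.

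**Figure D1:**
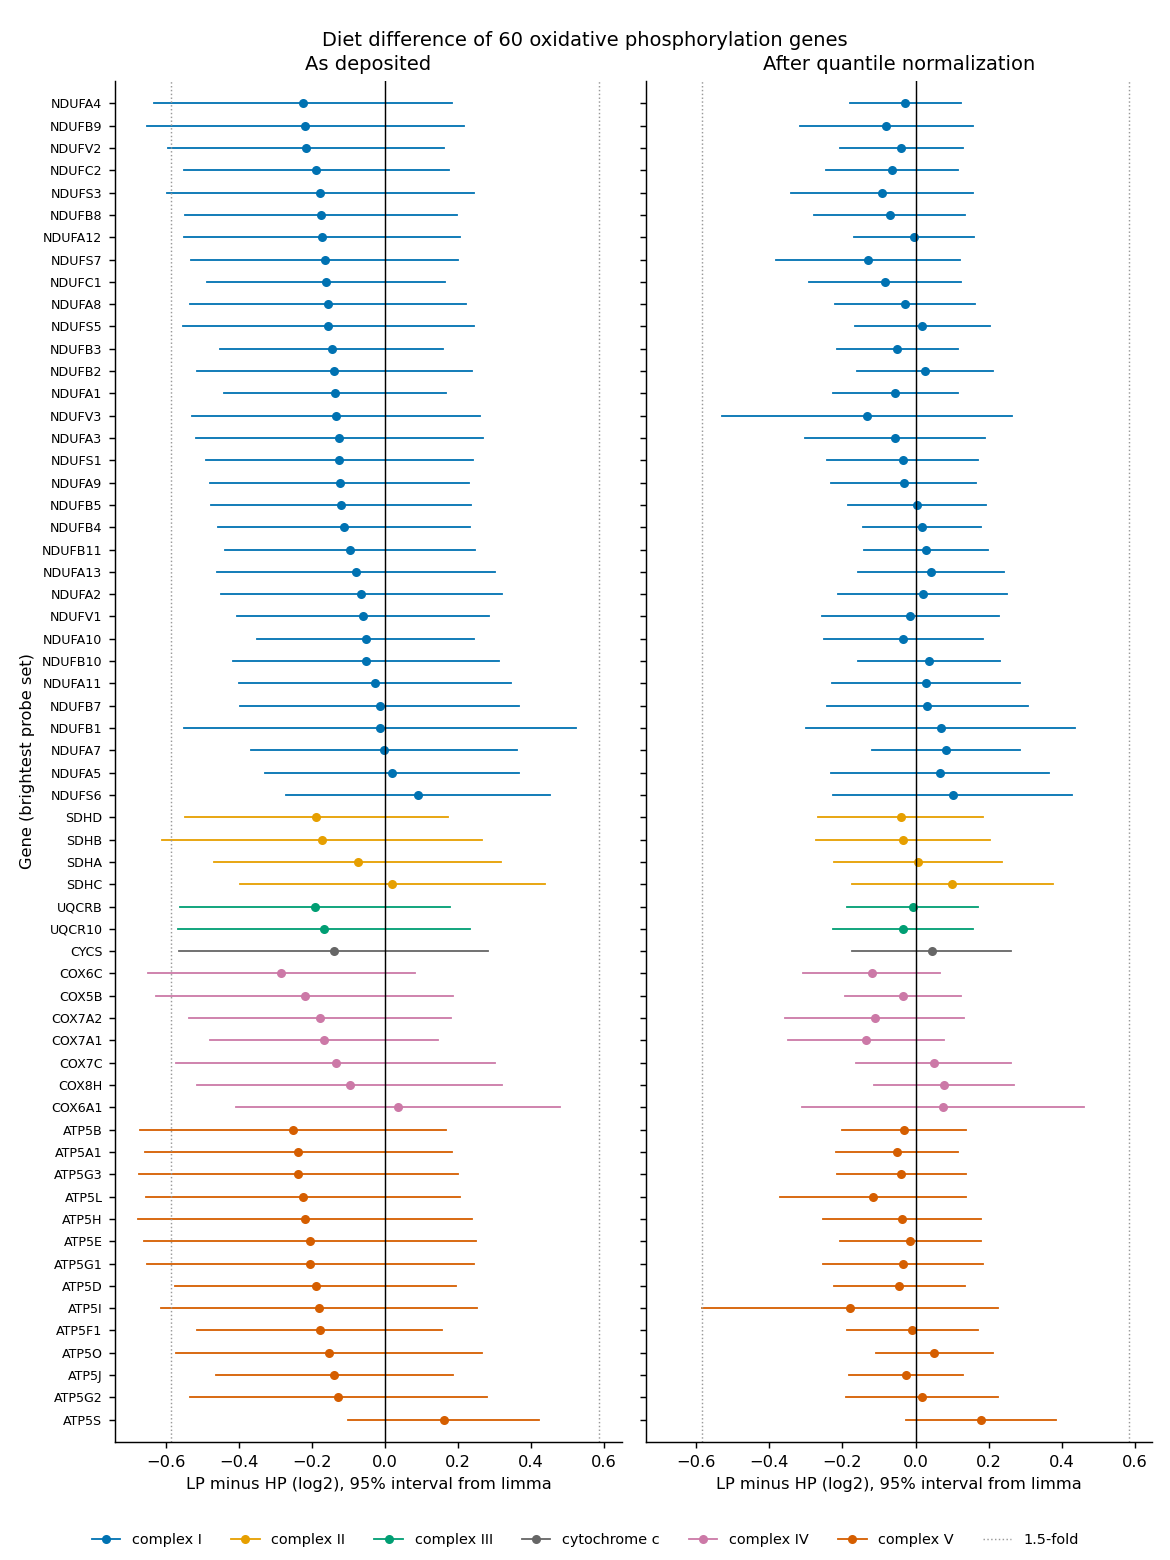
LP minus HP difference of each of the 60 genes (log2, points) with its 95% interval from limma (bars), as deposited on the left and after quantile normalization on the right, coloured by complex, with dotted lines at 1.5-fold. Every interval includes 0 in both panels, and the points lie mostly left of 0 as deposited (55 of 60) and on both sides of it after quantile normalization (37 of 60 below).

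Complex I, the NADH dehydrogenase, had 30 of its 32 genes below 0, with a median difference of -0.12, and 18 of 32 after quantile normalization, with a median of -0.02. NDUFA4 gave the brightest signal in this group and its lowest difference. It carries a complex I name, but its protein is now regarded as a subunit of complex IV. Its level ran from 12.73 in the lowest HP pig through a median of 13.30 to 13.66 in the highest, and was 12.81, 12.91, 12.93, 13.27 and 13.09 in the LP pigs. The means, 13.23 ± 0.37 (SD, n = 6) in HP and 13.00 ± 0.18 (SD, n = 5) in LP, differed by -0.22 with a standard error of 0.19 (exact permutation p = 0.247), and by -0.03 after quantile normalization. Every LP level lay within the range of the HP pigs.

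NDUFV2, a core subunit that holds an iron-sulphur cluster, had the smallest p of complex I. It measured 12.45, 12.96 and 13.30 as the lowest, median and highest level in HP and 12.57, 12.58, 12.68, 12.99 and 12.60 in LP, a difference of -0.22 (standard error 0.17, exact permutation p = 0.216) that was -0.04 after quantile normalization. The other core subunits on the array are named here by their role, after their values were seen. NDUFV1, which binds NADH, differed by -0.06, and NDUFS1, the largest subunit of the electron input module, by -0.12. NDUFS3 and NDUFS7, of the module that leads electrons on towards coenzyme Q, differed by -0.18 and -0.17. None of them was called. The dimmer probe sets of NDUFS3 differed by 0.18 and -0.08 and those of NDUFV2 by -0.21 and -0.12, also without a call.

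NDUFS6, an accessory subunit needed late in assembly, stood at the other end of complex I. Its levels were 8.92, 9.21 and 9.59 as lowest, median and highest in HP and 9.03, 9.24, 9.39, 9.77 and 9.17 in LP, so that the groups overlapped and differed by 0.09 (standard error 0.16, exact permutation p = 0.576). NDUFB1, a small accessory subunit of the membrane arm and chosen here after its values were seen, had the widest spread among the HP pigs of all members, from 10.97 through a median of 11.67 to 12.25. In LP it measured 11.39, 11.44, 11.56, 11.82 and 11.85, and all LP pigs lay inside the HP range. Its difference was -0.01 (exact permutation p = 0.974), but 0.32 with the spike-in level of each array as a covariate, where it was called (limma p = 0.0243, with 6.85% of all probe sets called).

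Complex II, succinate dehydrogenase, is shared with the citrate cycle and all of its subunits were measured. SDHA, the flavoprotein that oxidises succinate, had levels of 11.46, 11.81 and 12.24 as the lowest, median and highest HP pig and 11.57, 11.69, 11.70, 12.13 and 11.67 in LP, a difference of -0.08 (exact permutation p = 0.645). SDHB, the iron-sulphur subunit, read 12.01, 12.50 and 12.94 in HP in the same order and 12.09, 12.24, 12.25, 12.67 and 12.18 in LP, a difference of -0.17 (exact permutation p = 0.413). In both genes LP replicate 4 was the only LP pig above the HP median. Their dimmer probe sets lay on the other side of 0, at 0.08 for SDHA and 0.15 for SDHB, and were not called.

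The membrane anchors of complex II lay on opposite sides of 0. SDHC differed by 0.02 (standard error 0.19, exact permutation p = 0.92), with 11.43, 11.84 and 12.30 as lowest, median and highest in HP and 11.56, 11.86, 11.66, 12.16 and 12.02 in LP. SDHD differed by -0.19 (standard error 0.16, exact permutation p = 0.253), with 12.33, 12.70 and 12.98 in HP and 12.34, 12.47, 12.16, 12.82 and 12.73 in LP. The median over the 4 subunits was -0.12 as deposited and -0.01 after quantile normalization, with 3 and 2 of them below 0.

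Complex III, the cytochrome bc1 complex, was represented by UQCRB, the subunit that takes part in binding ubiquinone, and by the small subunit UQCR10. UQCRB measured 12.62, 13.07 and 13.39 as lowest, median and highest in HP and 12.66, 12.69, 12.87, 13.04 and 13.03 in LP (difference -0.19, standard error 0.17, exact permutation p = 0.247). UQCR10 measured 12.07, 12.51 and 12.91 in HP and 12.13, 12.18, 12.22, 12.64 and 12.33 in LP (difference -0.17, standard error 0.18, exact permutation p = 0.383). Both genes were below 0 on both scales, by a median of -0.18 as deposited and -0.02 after quantile normalization. CYCS had levels of 12.46, 12.97 and 13.50 in HP in the same order and 12.80, 12.80, 12.57, 13.16 and 12.95 in LP, and its difference of -0.14 (standard error 0.19, exact permutation p = 0.478) became 0.04. All LP levels of UQCRB, UQCR10 and CYCS lay within the HP range.

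Complex IV, cytochrome c oxidase, held the gene with the smallest p of all 60. COX6C, a nuclear subunit of the complex, had levels of 12.52, 13.11 and 13.36 as lowest, median and highest in HP and 12.50, 12.68, 12.63, 12.95 and 12.95 in LP. The means of 13.02 ± 0.30 (SD, n = 6) and 12.74 ± 0.20 (SD, n = 5) differed by -0.28, or 1.22-fold, with a standard error of 0.17 (limma p = 0.116, exact permutation p = 0.11). All LP pigs lay below the HP median, but HP replicate 3 was lower than 4 of the 5 LP pigs. Without that array, whose removal lowers LP against HP for this gene by construction, the difference was -0.38. COX6C was then the single member called in limma, among 6.34% of all probe sets. After quantile normalization of all 11 arrays it was -0.12 (limma p = 0.186, exact permutation p = 0.0649).

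COX5B, the brightest gene of complex IV and a subunit that binds zinc, measured 12.69, 13.22 and 13.61 as lowest, median and highest in HP and 12.74, 12.84, 12.85, 13.26 and 13.03 in LP, a difference of -0.22 (standard error 0.18, exact permutation p = 0.258). COX6A1, the form of subunit VIa outside heart and muscle, was the only complex IV gene above 0, at 0.04 (standard error 0.20, exact permutation p = 0.859). Its level ran over 10.26, 10.95 and 11.41 in HP and was 10.86, 10.89, 10.82, 11.27 and 11.06 in LP.

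For subunit VIIa the array holds both the form of heart and skeletal muscle, COX7A1, and the general form, COX7A2, and they differed by nearly the same amount. COX7A1 measured 10.54, 10.82 and 11.15 as lowest, median and highest in HP and 10.52, 10.52, 10.59, 10.88 and 10.75 in LP, a difference of -0.17 (standard error 0.14, exact permutation p = 0.206). COX7A2 measured 11.47, 11.68 and 12.03 in HP and 11.33, 11.35, 11.46, 11.87 and 11.72 in LP, a difference of -0.18 (standard error 0.16, exact permutation p = 0.279). LP replicates 1 and 2 lay just below the lowest HP pig for COX7A1, as did LP replicates 1 to 3 for COX7A2, and the others lay inside the HP range. The gap between the signals of these genes, taken within each pig, changed between the diets by 0.01 (exact permutation p = 0.859), and by -0.03 after quantile normalization. COX7A1 differed by -0.14 and COX7A2 by -0.11 after that step. COX8H, the muscle form of subunit VIII, went from -0.10 (standard error 0.19, exact permutation p = 0.606) to 0.08, with levels of 12.25, 12.76 and 13.25 in HP and 12.40, 12.52, 12.63, 12.85 and 12.62 in LP. Over all 7 complex IV genes the median was -0.17 with 6 below 0, and -0.04 with 4 below 0 after quantile normalization.

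Complex V, the ATP synthase, had the lowest median of the complexes as deposited, -0.20 with 13 of 14 below 0. After quantile normalization its median was -0.03 with 11 of 14 below 0, and that of complex IV was the lowest. The brightest gene of all members was ATP5B, the catalytic β subunit. Its levels were 12.90, 13.47 and 13.85 as lowest, median and highest in HP and 12.94, 12.99, 13.06, 13.41 and 13.35 in LP, and the difference of -0.25 (1.19-fold lower, standard error 0.19, exact permutation p = 0.212) was the lowest of the complex. After quantile normalization the difference was -0.03 and the SD among the HP pigs went from 0.37 to 0.03. ATP5A1 (α), of the catalytic head, and ATP5D (δ) and ATP5E (ε), of the central stalk, were named by their role after their values were seen. Their differences were -0.24, -0.19 and -0.21 as deposited and -0.05, -0.04 and -0.01 after quantile normalization.

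ATP5G1, ATP5G2 and ATP5G3 encode the same mature c subunit of the rotor with different import sequences. ATP5G1 measured 12.42, 12.90 and 13.32 as lowest, median and highest in HP and 12.47, 12.46, 12.56, 13.09 and 12.67 in LP, a difference of -0.20 (standard error 0.20, exact permutation p = 0.357). ATP5G2 measured 12.01, 12.56 and 12.93 in HP and 12.21, 12.22, 12.38, 12.59 and 12.37 in LP, a difference of -0.13 (standard error 0.18, exact permutation p = 0.5). ATP5G3 measured 12.85, 13.42 and 13.76 in HP and 12.92, 12.98, 12.96, 13.48 and 13.25 in LP, a difference of -0.24 (standard error 0.20, exact permutation p = 0.247). In all 3 genes LP replicate 4 was the only LP pig above the HP median. Within a pig, the gap between ATP5G1 and ATP5G3 changed by 0.03 between the diets (exact permutation p = 0.483) and that between ATP5G2 and ATP5G3 by 0.11 (exact permutation p = 0.123).

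ATP5S, coupling factor B, is not a core subunit of the ATP synthase but carries its name, and it was the gene with the highest difference. It measured 8.69, 9.06 and 9.23 as lowest, median and highest in HP and 9.15, 9.19, 9.21, 9.19 and 9.07 in LP, a difference of 0.16 (1.12-fold higher, standard error 0.12, limma p = 0.202, exact permutation p = 0.123). All LP pigs lay above the HP median and below the highest HP pig. After quantile normalization the difference was 0.18, and the exact permutation test then called it (p = 0.0325, with 6.56% of all probe sets called) where limma did not (p = 0.0805). Its dimmer probe set differed by 0.37 (limma adjusted p = 0.968). With its probe sets averaged it differed by 0.26 and was called in limma, as were 5.54% of all genes.

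**Figure D2:**
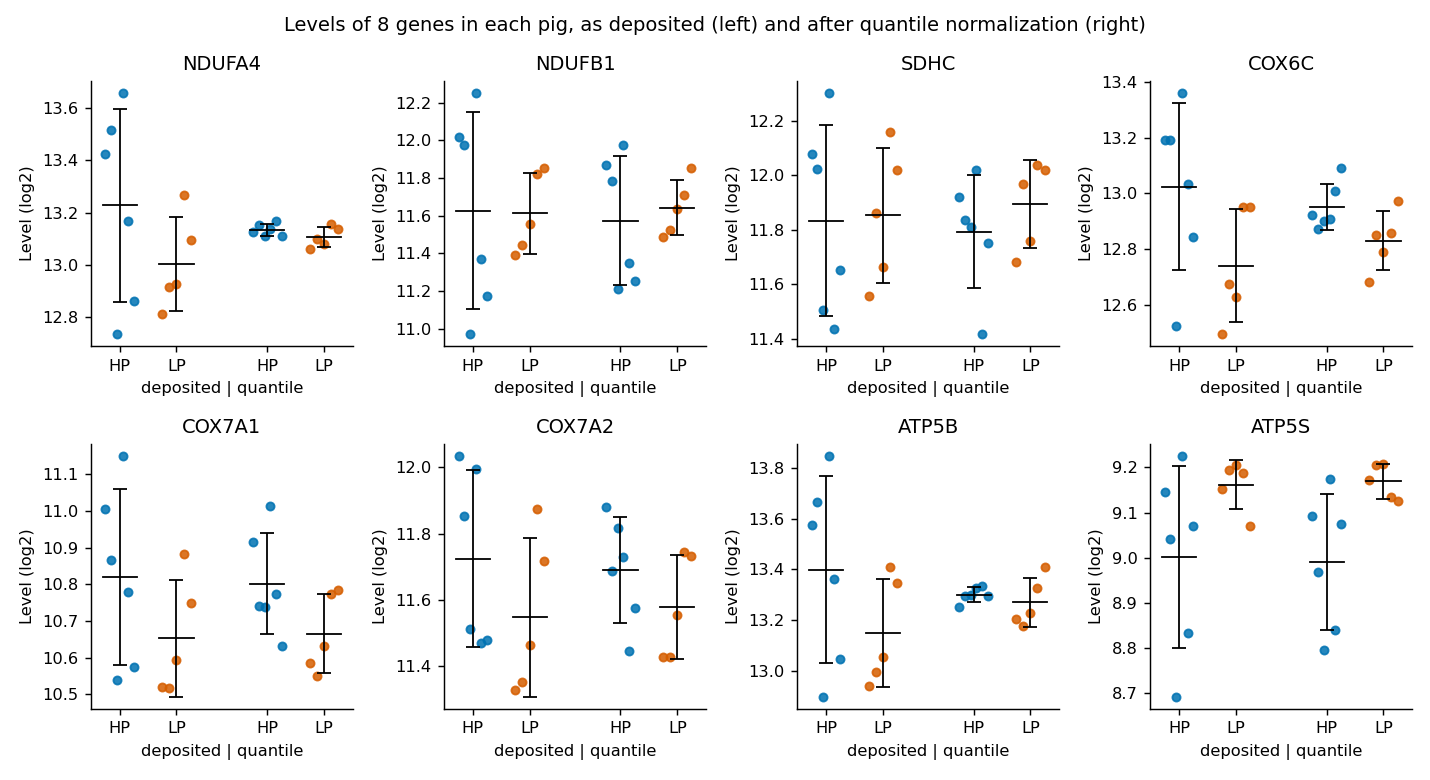
Level of 8 genes in each pig (log2, 1 point per array) for HP (blue, n = 6) and LP (orange, n = 5), as deposited at the left and after quantile normalization at the right of each panel, with the mean and SD as bars and an axis that does not start at 0. The groups overlap in every panel, and the HP points of ATP5B and NDUFA4 close up after quantile normalization (SD of ATP5B from 0.37 to 0.03).

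Members moved up and down together over the arrays, and the same arrays stood out in each complex. As deposited, 50 of the 60 genes had their highest level on HP replicate 4, against 23.5% of all probe sets, and 6 others on LP replicate 4. The lowest level fell on HP replicate 3 for 35 genes, against 17.5% of all probe sets, and on LP replicate 1 for 12. These shares were not taken over the brightest 10% of probe sets, to which most members belonged. HP replicate 4 also had the lowest array weight, 0.39, and the smallest share of probe sets above the negative controls, 74.9%. The median level over the members was 12.52, 12.53, 11.96, 12.74, 12.26 and 12.01 in HP replicates 1 to 6 and 12.02, 12.09, 12.13, 12.51 and 12.20 in LP replicates 1 to 5. HP replicates 1, 2 and 4 thus stood above every LP pig, while HP replicates 3 and 6 stood below all of them. The SD was larger in HP than in LP for 53 of 60 members, against 66.8% of all probe sets, with a median of 0.32 in HP and 0.21 in LP.

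Control transcripts of bacteria and a phage, spiked in for the hybridisation, moved with the members. Their mean level was 12.04, 12.19, 11.30, 12.22, 11.87 and 11.42 in HP replicates 1 to 6 and 11.43, 11.49, 11.56, 11.77 and 11.64 in LP replicates 1 to 5, so that the highest array was again HP replicate 4 and the lowest HP replicate 3. The median of all probe sets was 6.72 on every array, but the 95th percentile ran from 11.32 in HP replicate 3 to 11.84 in HP replicate 4. The excess of 3′ over 5′ signal for actin, a measure of RNA integrity and amplification, was 5.38 to 6.46 log2 units in HP and 5.12 to 5.93 in LP. It was highest on HP replicates 2 and 4. The part of this excess in the differences of the members was not tested. With the spike-in mean of each array as a covariate the median difference of the members was 0.06, against 0.03 over all probe sets and 0.06 over the brightest 10%. Without HP replicates 1, 2 and 4, the HP arrays with the highest member levels, whose removal raises LP against HP by construction, it was 0.11, against 0.03 and 0.08, and 2 of the 60 members were called where 7.85% of all probe sets were.

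The difference was also larger for members with a brighter signal. It had a median of -0.06 for the 24 members with a mean level under 12, with 19 below 0. For the 31 members from 12 to 13 it was -0.17 with 31 below 0, and for the 5 members at 13 or more, ATP5B, ATP5G3, ATP5O, COX5B and NDUFA4, it was -0.22 with 5 below 0. After quantile normalization the medians of these groups were -0.00, -0.03 and -0.03. The median over the members then lay between 12.14 and 12.38 in the HP pigs and between 12.18 and 12.40 in the LP pigs, and the median SD was 0.11 in each group. The highest levels were now most often on LP replicate 4, for 24 genes, and the lowest on LP replicate 1, for 22 genes.

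**Figure D3:**
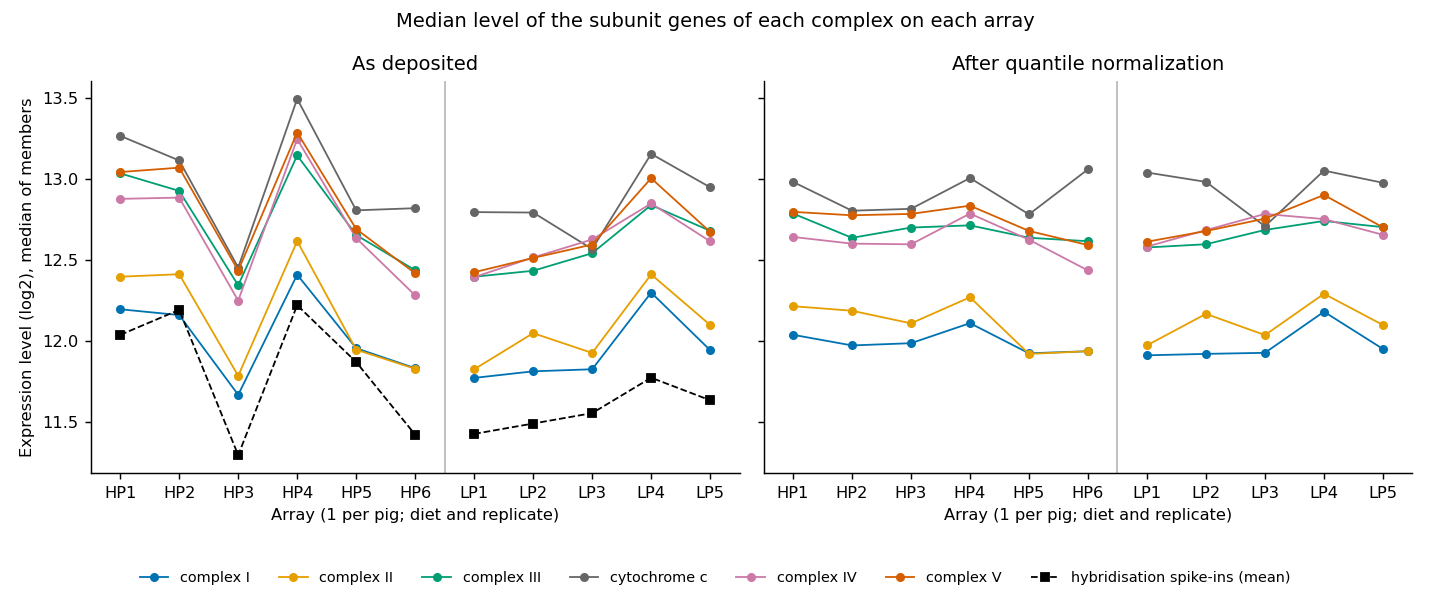
Median level of the genes of each complex on each array (log2), with the mean of the hybridisation spike-ins as black squares, as deposited on the left and after quantile normalization on the right. Lines join the arrays for the eye only, the axis does not start at 0, and the heights of complexes are signals of different probe sets. As deposited, all complexes and the spike-ins (12.22) peak on HP replicate 4. The spike-ins (11.30), cytochrome c and complexes I to IV are lowest on HP replicate 3 and complex V on HP replicate 6. The arrays differ less after quantile normalization.

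Gaps between complexes within a pig overlapped between the diets. In such a gap a shift that is equal for all probe sets of an array cancels. A shift that grows with the signal does not, and the differences were larger for brighter members. The median signal of complex V exceeded that of complex I by 0.59 to 0.91 in the HP pigs and by 0.65 to 0.77 in the LP pigs, and after quantile normalization by 0.66 to 0.80 and 0.70 to 0.83. For complex IV over complex I the gap was 0.45 to 0.84 in HP and 0.55 to 0.80 in LP. For complex III over complex I it was 0.61 to 0.84 in HP and 0.54 to 0.74 in LP. These gaps compare probe sets of different sensitivity, so their size is no measure of the amount of each complex.

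With each array centred on the median of the 60 members, a setting chosen after the values were seen, limma again called 0 of them at the unadjusted threshold, among 5.32% of all probe sets. On this scale all probe sets moved up by a median of 0.13. The exact permutation test then gave a p of 0.05 or less for 6 members, against 6.15% of all probe sets. Centring on the members removes what they share on an array and places them around 0. The shares over all probe sets are therefore no like comparison on this scale. NDUFA7, NDUFA13, NDUFB10 and NDUFA2, accessory subunits of complex I, were higher by 0.15, 0.07, 0.10 and 0.08 relative to the other members, ATP5S was higher by 0.31, and COX5B was lower by 0.07 (difference -0.07). The smallest limma adjusted p of a member was 0.89 on this scale.

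For 12 genes the array held further, dimmer probe sets, 15 in all, of which 0 were called in limma and 13 lay above the highest negative control on all 11 arrays. Of these 15 differences 5 were below 0 and 10 above, with a median of 0.08, whereas the brightest probe sets of most members were below 0. All 60 brightest probe sets lay above the highest negative control on all 11 arrays. Their mean levels ran from 6.26 for NDUFV3, a small flavoprotein fraction subunit of complex I, to 13.29 for ATP5B.

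Genes that surround the complexes in the mitochondrion showed few calls. The assembly factors, which build the complexes without staying in them, had 17 of 52 listed genes measured and 0 called, with a median of -0.00. The smallest p among them belonged to TMEM70, needed to assemble the ATP synthase (difference -0.24, exact permutation p = 0.0952), FOXRED1, an assembly factor of complex I (0.19, exact permutation p = 0.102), and ATPAF1, a chaperone of the β subunit (-0.17, exact permutation p = 0.121). TMEM70 was called lower after quantile normalization, at -0.21. The citrate cycle, which feeds NADH and succinate to complexes I and II, had 16 of 18 measured and 0 called, with a median of -0.11 that was -0.01 after quantile normalization. Its leading genes were DLD, a shared subunit of the oxoacid dehydrogenases, at -0.21 (exact permutation p = 0.154), and the succinyl-CoA ligase subunits SUCLG1 and SUCLG2, at -0.23 (exact permutation p = 0.184) and -0.16 (exact permutation p = 0.169).

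Regulators of mitochondrial biogenesis had 8 of 25 measured and 0 called, with a median of 0.02 on both scales. The transcription factor YY1 differed by -0.17, the mitochondrial DNA binding protein SSBP1 by -0.14 and the mitochondrial transcription factor TFAM by 0.11 (exact permutation p = 0.171, 0.431 and 0.439). Carriers and import proteins had 25 of 33 measured and 0 called, with a median of -0.17, and -0.03 after quantile normalization. ETFDH, which passes electrons from fatty acid and amino acid oxidation to coenzyme Q, differed by -0.37 (exact permutation p = 0.0714, limma p = 0.0653) and was called lower after quantile normalization, at -0.29. TOMM70, an import receptor, differed by 0.23 (exact permutation p = 0.0519), and UCP2, an uncoupling protein family member, by -0.35 (exact permutation p = 0.165).

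The list of coenzyme Q, heme and iron-sulphur cluster synthesis had 13 of 26 genes measured, with 1 lower and 0 higher and a median of -0.04. That gene was FDXR, the reductase that feeds electrons to the mitochondrial ferredoxins, which fell by 0.59 in log2 units with a standard error of 0.20 (exact permutation p = 0.00649, limma p = 0.0142) and fell by 0.60 after quantile normalization. Its partner FDX1 differed by -0.19 (exact permutation p = 0.236) and PDSS1, of the coenzyme Q side chain, by 0.22 (exact permutation p = 0.264). Subunits encoded in the mitochondrial genome were not analysed here.

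Markers of the fibres moved with the members on the deposited scale. Of 15 general skeletal muscle markers 13 were measured, all above the negative controls on every array, and 0 were called, with a median of -0.23 and 13 below 0, and 0.00 with 4 below 0 after quantile normalization. Their summed level was 16.70 to 17.64 in HP and 16.81 to 17.20 in LP. Slow fibre markers had 10 of 11 measured, with 1 lower, CA3, the carbonic anhydrase of slow muscle (-0.34, exact permutation p = 0.0476, and -0.15 and not called after quantile normalization), and a median of -0.23 that became -0.01. Fast fibre markers had 6 of 12 measured and 0 called, with a median of -0.24 that became 0.01. The part of fibre content in the differences of the members was not tested.

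Markers of other cells in the tissue were measured in the same fit. Adipocyte markers had 12 of 14 measured, with 1 higher, SCD, a fatty acid desaturase (1.84, exact permutation p = 0.0195), and 0 lower, a median of 0.10 (0.15 after quantile normalization, where GPD1, glycerol-3-phosphate dehydrogenase, was also called higher, at 0.26) and a summed level of 13.55 to 14.53 in HP and 13.73 to 14.40 in LP. Endothelial markers had 11 of 12 measured, with 1 lower, PROCR, the protein C receptor (-1.16, exact permutation p = 0.00866), a median of -0.10 that became -0.05, and summed levels of 13.43 to 13.93 in HP and 13.37 to 13.67 in LP. Macrophage and fibroblast markers had 7 of 10 and 7 of 9 measured with 0 called, at medians of -0.30 and -0.28 that stayed at -0.31 and -0.24 after quantile normalization, and red blood cell markers had 3 of 10 measured with 0 called, with a median of 0.13 that became 0.07, AHSP being above the negative controls on 0 arrays. The summed levels of macrophage, fibroblast and red blood cell markers overlapped between the diets, at 9.59 to 10.98, 13.06 to 13.83 and 9.79 to 10.47 in HP and 9.74 to 10.52, 13.16 to 13.38 and 10.24 to 10.51 in LP. The part of these cells in the differences of the members was not tested.

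**Figure D4:**
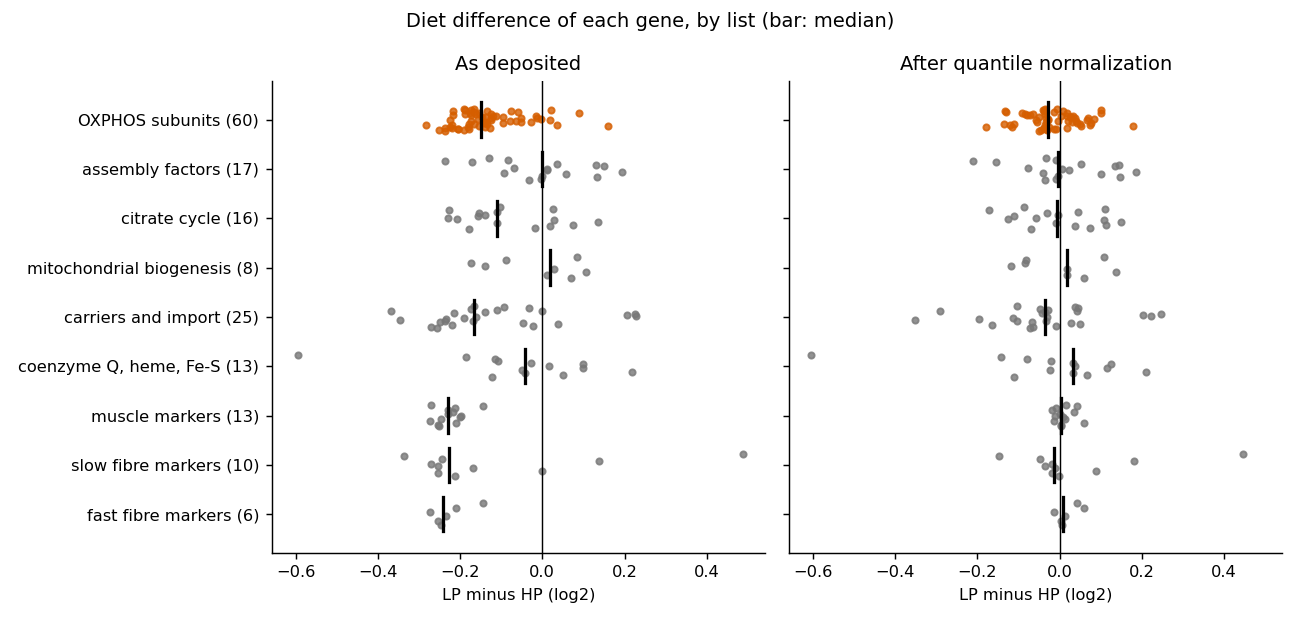
LP minus HP difference of each measured gene (log2, points) with the median of its list (bar), as deposited on the left and after quantile normalization on the right, with the number of genes in brackets. The subunit genes (orange, median -0.15) lie between the citrate cycle genes (-0.11) and the muscle markers (-0.23) as deposited, and all of these medians lie within 0.03 of 0 after quantile normalization.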

How the data were processed

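Expression in *M. semimembranosus* was measured on 1 Affymetrix Porcine Genome array per pig, in 6 HP and 5 LP gilts grouped by the diet in their labels. RNA was extracted with TRIZOL, amplified with the NuGEN Ovation kit and labelled with biotin. Each deposited value is a probe set's log2 expression level as the authors computed it. Their methods name puma, in Bioconductor, and how background and scaling were handled is not given in the sources used here. The probe-level intensities, qPCR and meat quality data were not used.

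Of 24123 probe sets 124 controls were left out. Symbols came from the platform annotation, and the Entrez IDs of 60 of 60 members carry the same symbol in the RefSeq table of Sscrofa11.1. A further 2 probe sets with several symbols matched the naming rule and were left out. Levels of different probe sets were not compared as amounts. An array counted as above background where the level exceeded the highest of 23 negative controls.

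LP minus HP was fitted over all 23999 remaining probe sets in R 4.3.3 with limma 3.58.1 (constant prior, two-sided, no covariates). The call threshold was a limma p of 0.05 or less before adjustment, with the cut-off that the study applied to its P-like values from puma. Benjamini-Hochberg values were adjusted over all probe sets. Group means were compared a second time by exact permutation over all 462 divisions of the pigs into 6 and 5, two-sided. The replicates are separate pigs, and their number limits the precision. The fit was tested on simulated data.

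The members and gene lists were chosen with earlier results of these data known. Per-pig values are given for the brightest gene, the lowest and highest difference and the 2 smallest p of each complex, all SDH genes, CYCS, and the COX6A, COX7A, COX8 and ATP5G forms, and for the 3 smallest p of each surrounding list the difference. The alternatives were quantile normalization, median centring, leaving out dim probe sets, raising values below the 20th percentile, array weights, a prior with trend and robust, a block of replicate numbers, all probe sets of a gene averaged, the spike-in mean as a covariate, leaving out each array, and leaving out HP replicates 1, 2 and 4 together, which was chosen with earlier results known. Centring on the members was added after the values were seen.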

Additional observations from a re-analysis of the deposited data

Results flagged for a closer look

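Dixon's test for a single distant array, with 95% critical values of 0.71 in LP and 0.625 in HP, was run on 130 groups of values and marked 8 of them, where chance alone would mark about 1 group in 20. All 8 were LP replicate 4, high among the LP pigs, in 6 complex I genes and 2 complex II genes. Members moved together over the arrays, so the groups are not independent and these 8 marks on 1 array are not separate events. In complex I the level of LP replicate 4 was 10.72 for NDUFA10 against 10.20 to 10.32 in the other LP pigs, 12.34 for NDUFA9 against 11.77 to 11.93, and 12.29 for NDUFB10 against 11.82 to 11.95. It was 12.94 for NDUFS5 against 12.50 to 12.63, 11.48 for NDUFV1 against 10.86 to 11.02, and 12.99 for NDUFV2 against 12.57 to 12.68. In complex II it was 12.13 for SDHA against 11.57 to 11.70 and 12.67 for SDHB against 12.09 to 12.25. The same array had the highest spike-in mean among the LP pigs, 11.77 against 11.43 to 11.64.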

How the results depend on the processing

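The number of members called was 0 under quantile normalization (6.09% of all probe sets called) and centring on the members (5.32%). It was also 0 under median centring, the filter on dim probe sets, raised low values, the trended robust prior and array weights. For these 5 settings, the replicate block and most single arrays left out, no share of all probe sets is given here, so their counts stand without a comparison. With all probe sets of a gene averaged 1 member was called (ATP5S, 0.26, with 5.54% of all genes). With the spike-in covariate it was 1 (NDUFB1, with 6.85% of all probe sets). Without HP replicates 1, 2 and 4 it was 2 (ATP5S, 0.30, and NDUFB1, 0.44, with 7.85%). Leaving out 1 array gave 0 to 1 (COX6C without HP replicate 3, the lowest HP pig for this gene, whose removal lowers LP against HP by construction). Centring on the members places them around 0, so the sign of the medians was not compared there. Under the remaining settings the medians kept their sign, with the following exceptions. With the spike-in covariate they were 0.063 over all members and 0.068, 0.11, 0.043, 0.024 and 0.043 over complexes I to V. Removing HP replicates 1, 2 and 4 raises LP against HP by construction. The medians were then 0.11 over all members and 0.10, 0.19, 0.10, 0.075 and 0.11 over complexes I to V. Leaving out each array gave -0.23 to -0.08 over all members, -0.21 to -0.06 for complex I, -0.22 to -0.03 for II, -0.26 to -0.10 for III, -0.22 to -0.10 for IV and -0.28 to -0.11 for V, smallest in size without HP replicate 4. Of 483 values of the 21 genes named by rule under these alternatives, 431 kept their direction and side of the threshold, 3 came to be called and 49 changed sign without a call, among them 16 without HP replicates 1, 2 and 4, 13 with the spike-in covariate and 4 under quantile normalization. Other causes were not tested. The number of arrays limits the precision.

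No pairing of the pigs by replicate number was seen. The deviations of same-numbered arrays from their group means correlated at -0.07, 0.02, -0.01, 0.08 and 0.06, and 1 of 5 LP arrays correlated best with its own number. Such values cannot exclude that same-numbered pigs shared a weight block, which is not given for single pigs. With the replicate number as a block, where HP replicate 6 has no partner and adds nothing, 0 members were called, and the medians were -0.19 over all members and -0.17, -0.17, -0.24, -0.22 and -0.27 over complexes I to V.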
